A study of Mus musculus with 18 samples.

Results

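A volume load was placed on the heart of MHC-cycD2 mice by opening a shunt between the aorta and the vena cava, and the left ventricle was compared with that of sham-operated mice of the same genotype. The comparison takes 10 of the 18 libraries of the series, those titled as Shunt (n = 5) and as sham control (n = 5), and is confined to genes on the autosomes. All 10 mice carried the cycD2 transgene, in which an MHC promoter drives cyclin D2 in heart muscle cells, on a (DBA/2J x C3HeB/FeJ)F1 background. Shunt and sham mice were operated on at 8 weeks of age, the Shunt mice by puncture through the vena cava into the aorta with a 23 gauge needle. Sham operations are described for the shunt and for the aortic constriction, and the labels used here do not say which one the sham mice had or how long after surgery the ventricles were taken. A further 3 libraries, from cycD2 mice with transverse aortic constriction (TAC, a pressure load, replicates 1, 2 and 4), and 5 from wild-type (WT) mice without the transgene are given beside the main values where they bear on them. A volume load on a WT heart was not analysed here, so each difference applies to hearts that already express the transgene.

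RNA was sequenced from each ventricle as a separate sample. The Shunt libraries held 23900314 to 30594075 counts in genes and the sham libraries 22162960 to 26521057, and reads outside any gene were 15.03% to 19.87% of the assignable reads in Shunt and 14.91% to 17.90% in sham. The transgene gave Ccnd2, cyclin D2, 17739 to 22211 CPM (library-size-scaled counts) in Shunt and 21129 to 30478 CPM in sham. The log2 difference was -0.32 ± 0.63 in the edgeR fit of all 18 libraries (SE, adjusted p = 0.859). With Shunt and sham fitted alone it was -0.32 ± 0.11 (unadjusted p = 0.0146, adjusted p = 0.213). The library labelled TAC replicate 2 had 228 CPM of Ccnd2, near the 141 to 189 CPM of WT libraries, and so went against its label. Xist, the RNA of an inactive X chromosome, had 3408 to 5787 counts in the Shunt libraries and 5 to 11 in the sham libraries, while the Y-linked helicase gene Ddx3y had 0 to 0.0372 CPM in Shunt and 93.1 to 103 CPM in sham. Volume load and sex therefore cannot be told apart in any value below. The atrial light chain gene Myl7 was at 84.9 and 204 CPM in Shunt replicates 2 and 4, at 173 and 319 CPM in sham replicates 2 and 5, and between 1.38 and 11.5 CPM in the other 6 libraries. The first principal component of the 10 libraries held 26.1% of their variance and the second 21.9%, and the Shunt and sham libraries overlapped on both.

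A shunt returns blood from the aorta straight to the venous side, so the ventricle fills with more blood at each beat and its wall is stretched in diastole. The textbook response to a volume load is growth of the ventricle by lengthening of its muscle cells, and stretched or strained heart muscle switches on a set of load genes, among them the natriuretic peptides and fetal forms of sarcomere proteins. Cyclin D2 pushes cells from G1 into S phase, and in heart muscle its transgene is known for keeping DNA synthesis going past the neonatal period.

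The groups differed in few autosomal genes. By edgeR's quasi-likelihood test, 15 of 14241 autosomal genes (0.105%) fell in Shunt at a Benjamini-Hochberg adjusted p under 0.05 and 4 (0.0281%) rose. Of the 15 genes that fell, 11 did so by at least 2-fold, and 1 of the 4 that rose did. Each of these 19 genes had Shunt and sham libraries that did not overlap. Of all autosomal genes, 2.32% did not overlap with lower values in Shunt and 1.61% with higher values. The 19 were called from these same libraries, so their lack of overlap is no separate support for the calls. DESeq2 called 108 lower and 91 higher, with the 19 among them. At an unadjusted p under 0.05 in edgeR the counts were 1018 lower (7.15%) and 1041 higher (7.31%). In whole ventricle, fewer cells of a type and less RNA per cell cannot be told apart.

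**Figure D1:**
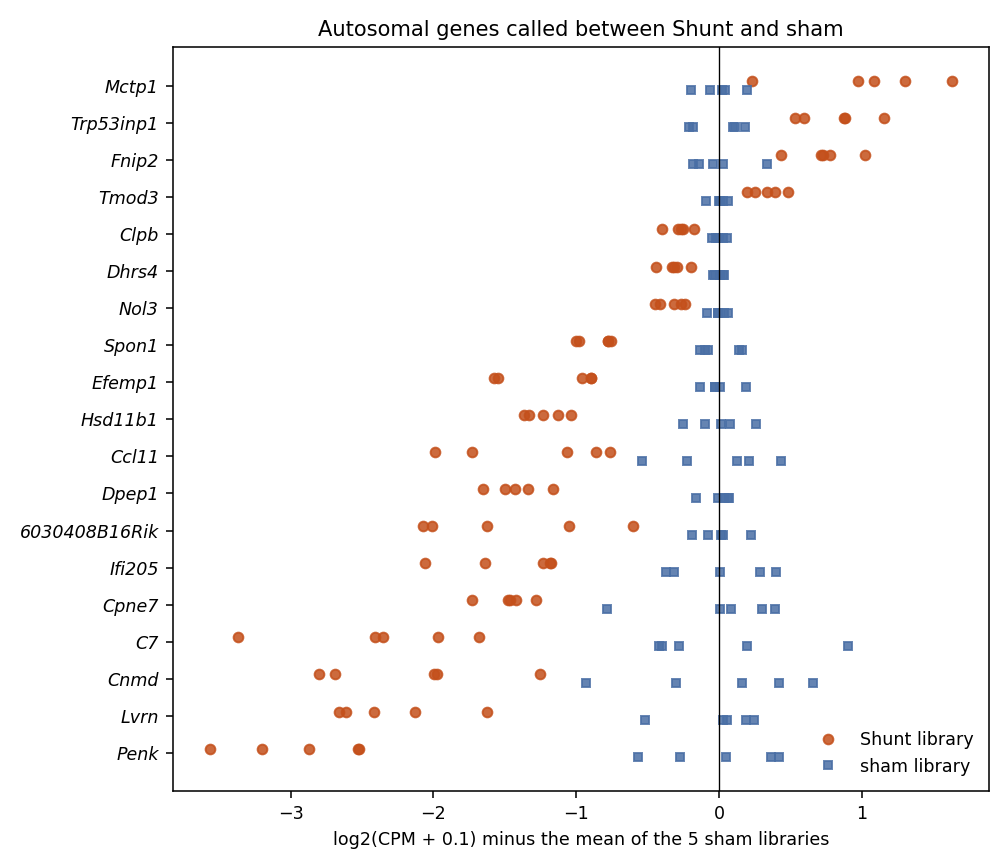
Each row is 1 of the 19 called genes, and each point is 1 library, placed at its log2(CPM + 0.1) minus the mean of the 5 sham libraries, with Shunt as circles and sham as squares. The 15 lower genes lie left of zero and the 4 higher genes right of it, and in no row do the circles and squares overlap.

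The steepest fall was in a neuropeptide gene. Penk (ENSMUSG00000045573, chromosome 4, 4133531 to 4138819, GRCm38) encodes proenkephalin, the precursor of the enkephalin opioid peptides. It had 1.04, 2.24, 2.25, 1.75 and 1.37 CPM in Shunt replicates 1 to 5, against 9.03, 11.1, 13.9, 17.3 and 18 CPM in sham replicates 1 to 5. The Shunt libraries lay far below the lowest sham library, and neither group held a stray library. The means were 1.73 ± 0.535 CPM in Shunt and 13.8 ± 3.86 CPM in sham (SD, n = 5 each), a 7.98-fold lower level, or -3.0 ± 0.38 on the log2 scale (SE, adjusted p = 0.00129). Of the other opioid peptide and receptor genes, Oprd1, the delta receptor that enkephalins bind, had a log2 fold change of -0.42 ± 0.20 (adjusted p = 0.346). Ogfr, the opioid growth factor receptor, had -0.08 ± 0.07 (adjusted p = 0.669). The remaining 6 of the 9 autosomal genes of that list had too few counts to be tested.

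A complement gene also fell steeply. C7 (ENSMUSG00000079105, chromosome 15, 4988762 to 5063740) encodes a component of the membrane attack complex. It had 3.42, 5.51, 1.64, 3.28 and 4.49 CPM in Shunt, against 14.7, 20.5, 13.5, 13.3 and 33.4 CPM in sham, so sham replicate 5 was the highest of all and Shunt replicate 3 the lowest. Means were 3.67 ± 1.45 CPM in Shunt and 19.1 ± 8.52 CPM in sham (SD, n = 5 each), with a log2 fold change of -2.39 ± 0.31 (adjusted p = 0.00129). C7 was the only 1 of 21 tested complement genes to be called. C3, the central component, had 75.5 to 166 CPM in Shunt and 91.1 to 215 CPM in sham (log2 fold change -0.42 ± 0.30, adjusted p = 0.547). The median log2 fold change of the complement list was -0.05, against 0.002 for all autosomal genes tested. The 250 bases before the RefSeq start of C7 (GRCm38.p6, chr15:5063774-5064023, minus strand) are shown because C7 is a called gene whose window holds both motifs that are searched below in the load genes. Capitals mark TGATAA, the form of a GATA factor site used here, and TATAAA on either strand.
C7: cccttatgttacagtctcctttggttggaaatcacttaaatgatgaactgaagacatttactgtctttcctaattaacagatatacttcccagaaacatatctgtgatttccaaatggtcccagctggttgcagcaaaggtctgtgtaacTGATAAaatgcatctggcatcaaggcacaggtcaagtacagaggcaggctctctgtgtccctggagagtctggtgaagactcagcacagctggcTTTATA
Of the 10 called genes with an entry in the RefSeq promoter table, 1 held TGATAA and 1 held TATAAA in this window, against 9.21% and 14.3% of the 27025 genes in the table.

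Among the enzymes, Hsd11b1 (ENSMUSG00000016194, chromosome 1, 193221634 to 193264075) had the smallest p of the comparison. It encodes 11-beta-hydroxysteroid dehydrogenase type 1, which regenerates active glucocorticoid from its inactive keto form inside cells. Its levels were 10.7, 9.92, 9.05, 9.27 and 11.4 CPM in Shunt, against 21.9, 19.7, 23.7, 28.1 and 24.8 CPM in sham. The spread was narrow in both groups, 10.1 ± 0.967 CPM in Shunt and 23.6 ± 3.16 CPM in sham (SD, n = 5 each), and the log2 fold change was -1.23 ± 0.13 (adjusted p = 0.000134). No other gene of the glucocorticoid metabolism and target list was called by edgeR (1 of 21 tested). At an unadjusted p under 0.05, 5 members were higher, against 7.31% of all autosomal genes. One of those 5 is Fkbp5, an induced target of the glucocorticoid receptor, at 164, 14.1, 22.7, 25.4 and 111 CPM in Shunt and 13.2, 14.6, 27.9, 37.2 and 44.3 CPM in sham. Its 2 highest libraries of the 10 were Shunt replicates 1 and 5, and its log2 fold change was 1.30 ± 0.59 (adjusted p = 0.326).

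Dpep1 (chromosome 8, 123186242 to 123201812) encodes a membrane dipeptidase that also cleaves leukotriene D4, and stood on the list of fibroblast markers. It had 13.7, 19.3, 15.3, 16.0 and 17.1 CPM in Shunt and 38.8, 45.3, 43.1, 45.4 and 44.4 CPM in sham. The log2 fold change was -1.41 ± 0.15 (adjusted p = 0.000139). None of the other 11 fibroblast markers was called by edgeR, 1 was called higher by DESeq2, and the list as a whole had a summed level of 2780 to 3800 CPM in Shunt and 2580 to 3960 CPM in sham, with a median log2 fold change of 0.18. Lvrn, the membrane aminopeptidase laeverin, had 0.293 to 0.708 CPM in Shunt and 1.64 to 2.85 CPM in sham, with a log2 fold change of -2.49 ± 0.36 (adjusted p = 0.00206). Dhrs4, a carbonyl and retinal reductase, fell little but evenly, with 63.8 to 75.8 CPM in Shunt and 84.4 to 88.9 CPM in sham (log2 fold change -0.31 ± 0.06, adjusted p = 0.0301).

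Secreted and matrix proteins made up another group of the genes that fell. Spon1 (ENSMUSG00000038156, chromosome 7, 113765998 to 114043370) encodes F-spondin, an adhesive glycoprotein of the matrix. It had 21.5, 25.2, 21.2, 24.8 and 24.8 CPM in Shunt, against 38.9, 47.7, 40.3, 39.8 and 47.0 CPM in sham. Shunt libraries lay within a few CPM of each other and below each sham library, with means of 23.5 ± 1.99 CPM in Shunt and 42.7 ± 4.26 CPM in sham (SD, n = 5 each). The log2 fold change was -0.86 ± 0.10 (adjusted p = 0.000173). Efemp1, the elastic fibre protein fibulin-3, had 6.58, 10.4, 9.93, 10.4 and 6.44 CPM in Shunt and 17.7, 19, 19.5, 19 and 22.1 CPM in sham (log2 fold change -1.16 ± 0.20, adjusted p = 0.0102). Ccl11, the eosinophil attractant eotaxin, had 3.08, 5.96, 7.34, 6.85 and 3.71 CPM in Shunt and 8.59, 10.7, 13.7, 14.5 and 17.0 CPM in sham. Its log2 fold change was -1.26 ± 0.23 (adjusted p = 0.0187). Cnmd, the angiogenesis inhibitor chondromodulin, was low throughout, with 0.130 to 0.571 CPM in Shunt and 0.741 to 2.43 CPM in sham (log2 fold change -2.48 ± 0.47, adjusted p = 0.0243).

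The last of the genes that fell have roles inside the cell. Ifi205, an interferon-inducible gene, had 0.775 to 1.51 CPM in Shunt and 2.71 to 4.69 CPM in sham, with a log2 fold change of -1.51 ± 0.21 (adjusted p = 0.00133). Of the 31 genes of the separate interferon response list, none was called by edgeR or DESeq2. Of these, 25 had a log2 fold change above 0, and 7 were higher at an unadjusted p under 0.05, against 7.31% of all autosomal genes. Ifit2, an interferon-induced translation inhibitor, had 20.7 to 26.2 CPM in Shunt and 13.8 to 17.5 CPM in sham (log2 fold change 0.52 ± 0.15, adjusted p = 0.160). Cpne7, a calcium-dependent phospholipid-binding protein, was at 0.293 to 0.436 CPM in Shunt and 0.654 to 1.61 CPM in sham (-1.74 ± 0.25 on the log2 scale, adjusted p = 0.0022). Nol3, the apoptosis repressor ARC of heart and skeletal muscle, fell by a small amount, with 40.3 to 46.7 CPM in Shunt and 51.9 to 57.4 CPM in sham (-0.33 ± 0.06 on the log2 scale, adjusted p = 0.0233). Clpb, a mitochondrial protein disaggregase, did so too, with 85.4 to 100 CPM in Shunt and 109 to 117 CPM in sham (-0.27 ± 0.05, adjusted p = 0.0233). 6030408B16Rik had 0.604 to 1.85 CPM in Shunt and 2.49 to 3.36 CPM in sham (-1.44 ± 0.24, adjusted p = 0.00686).

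Of the genes that rose, Trp53inp1 (ENSMUSG00000028211, chromosome 4, 11156431 to 11174379) had the smallest p. It is a p53-induced gene whose product acts in the stress response and in autophagy. Its levels were 35.9, 24.4, 23.3, 29.6 and 29.7 CPM in Shunt, against 14.2, 17.2, 18.3, 13.9 and 17.4 CPM in sham. Shunt replicate 1 was the highest, and the lowest Shunt library lay above the highest sham library. The means were 28.6 ± 5.03 CPM in Shunt and 16.2 ± 2.04 CPM in sham (SD, n = 5 each), a log2 fold change of 0.82 ± 0.13 (adjusted p = 0.00451). It was the 1 called gene among 27 tested p53 targets, of which 16 had a log2 fold change above 0 and 3 were higher at an unadjusted p under 0.05. Of all autosomal genes, 49.7% were below 0 and 7.31% were higher at that p. Perp, an apoptosis effector on the same list, had 222 to 261 CPM in Shunt and 257 to 277 CPM in sham (log2 fold change -0.14 ± 0.07, adjusted p = 0.325).

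Fnip2, a partner of folliculin in nutrient and energy sensing, had 34.7, 23.0, 28.2, 28.0 and 29.2 CPM in Shunt and 16.5, 17.3, 15.4, 15 and 21.5 CPM in sham (log2 fold change 0.74 ± 0.13, adjusted p = 0.0153). Mctp1, a calcium-binding membrane protein, had 9.54, 6.49, 3.55, 6 and 7.57 CPM in Shunt and 3.05, 3.47, 2.62, 2.88 and 3.10 CPM in sham. Here Shunt replicate 3 came close to sham replicate 2, and the log2 fold change was 1.13 ± 0.21 (adjusted p = 0.0233). Tmod3, which caps the pointed ends of actin filaments, had 77.0 to 94.0 CPM in Shunt and 63.2 to 70.2 CPM in sham (log2 fold change 0.34 ± 0.07, adjusted p = 0.0491).

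The call held for 11 of the 19 genes when each Shunt and sham library was left out in turn, namely Penk, C7, Hsd11b1, Dpep1, Spon1, Ifi205, Lvrn, Cpne7, 6030408B16Rik, Efemp1 and Trp53inp1. Fnip2 lost it without Shunt replicate 1 or without sham replicate 1, 3 or 4 (highest adjusted p = 0.0711). Ccl11 lost it without Shunt replicate 5 or sham replicate 3, 4 or 5 (highest adjusted p = 0.0723). Mctp1 lost it without Shunt replicate 1 or 5 or sham replicate 1, 3, 4 or 5 (highest adjusted p = 0.0834), and Nol3 without Shunt replicate 2 or 4 or sham replicate 2, 3, 4 or 5 (0.0893). Cnmd lost it without Shunt replicate 1, 3, 4 or 5 or sham replicate 2, 4 or 5 (highest adjusted p = 0.103). Clpb and Dhrs4 each lost it without any 1 of Shunt replicates 1, 2, 4 and 5 and sham replicates 1, 3, 4 and 5 (highest adjusted p = 0.0741 and 0.0958). Tmod3 lost it in each of the 10 cases but the one without Shunt replicate 2 (highest adjusted p = 0.176). No gene changed direction in these fits. With Shunt replicates 1 and 5 both left out, 10 of the 19 were still called, and Trp53inp1 had a log2 fold change of 0.67 (adjusted p = 0.0609).

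Sex could be compared with load only through the TAC libraries, where replicates 1 and 2 had 146 and 104 CPM of Xist and replicate 4 had 0.172 CPM. The WT libraries were of the same sex as sham, with 0.295 to 0.588 CPM of Xist and 114 to 131 CPM of Ddx3y. WT values therefore do not separate sex from load either. Penk was at 1.04 to 2.25 CPM in Shunt, at 0.439, 1.85 and 4.47 CPM in TAC replicates 1, 2 and 4, and at 9.03 to 18 CPM in sham and 14.1 to 26.5 CPM in WT. Lvrn was at 0.293 to 0.708 CPM in Shunt, 0.0399, 0.158 and 0.773 CPM in TAC and 1.64 to 2.85 CPM in sham. Over the 15 genes that fell, TAC replicates 1 and 2 both lay below replicate 4 in 12, against 33.1% of all autosomal genes, and over the 4 that rose both lay above it in 3, against 33.8%. The library labelled TAC replicate 2, which lacked the transgene level of Ccnd2, is one of the pair. TAC replicate 4 also had the smallest mean deviation of the load and fetal genes from the sham mean. It was 1.73 on the log2 scale, against 2.09 and 2.5 in replicates 1 and 2. In these TAC libraries sex and the size of the load response therefore cannot be told apart. Hsd11b1 had 12.4, 14.5 and 15.4 CPM in TAC, so the Xist-negative library was also below the 19.7 to 28.1 CPM of sham, and Trp53inp1 had 16, 18 and 21.9 CPM, within the sham range in replicates 1 and 2 and between the sham and Shunt ranges in replicate 4. With the level of Y-linked genes as a covariate in edgeR, which only the TAC libraries separate from the groups, 0 autosomal genes were called and 798 had an unadjusted p under 0.05. In that fit 17 of the 19 genes had the same sign, and 7 of them had an unadjusted p under 0.05. Among the 7, the log2 fold change was -0.97 for Hsd11b1 (unadjusted p = 0.00654), -0.55 for Spon1 (unadjusted p = 0.0279), -1.70 for C7 (unadjusted p = 0.0379) and 1.28 for Trp53inp1 (unadjusted p = 0.000432). For Penk it was -0.75 (unadjusted p = 0.359), and for Lvrn and Tmod3 the sign turned, to 0.87 and -0.04.

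**Figure D2:**
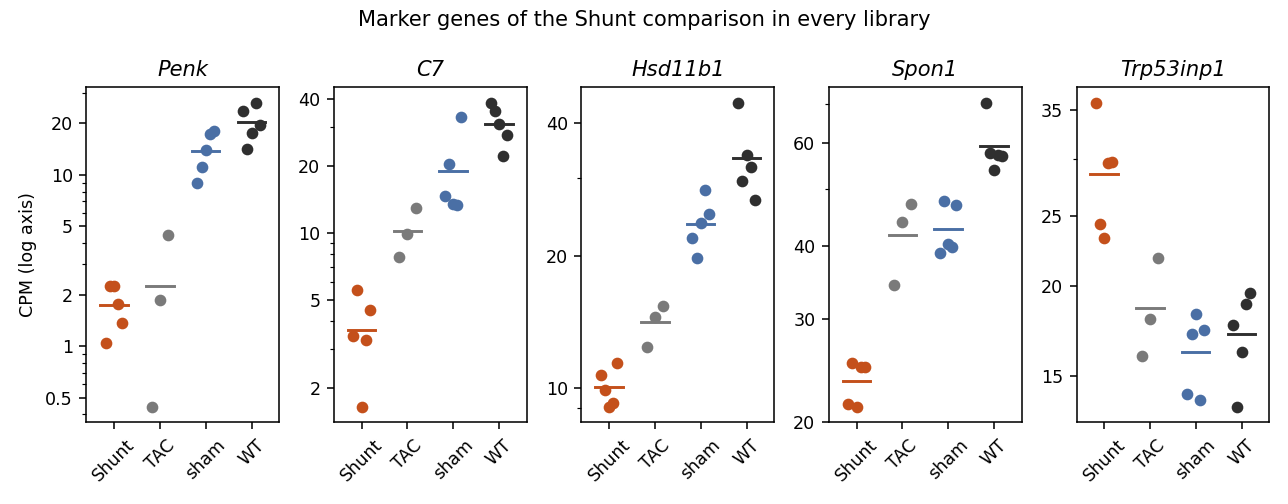
CPM on a log axis for Penk, C7, Hsd11b1, Spon1 and Trp53inp1 in each Shunt, TAC, sham and WT library, with a bar at the mean of each group. Penk is at 0.439 to 4.47 CPM in TAC, below every sham library, whereas Spon1 is at 34.3 to 47.2 CPM in TAC, above the 21.2 to 25.2 CPM of Shunt, and Trp53inp1 is higher in Shunt than in the other groups. By Xist and Ddx3y, the WT libraries are of the same sex as sham and not of that of Shunt.

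A direct comparison of Shunt with TAC gave differences of both signs among these genes. Spon1 was lower in Shunt than in TAC by -0.83 on the log2 scale (adjusted p = 5.67e-05), as was Nol3 by -0.60 (adjusted p = 3.03e-05). C7 was lower by -1.48 (adjusted p = 0.00461) and Hsd11b1 by -0.49 (adjusted p = 0.0174), a call that was lost without the library labelled TAC replicate 2 (adjusted p = 0.0645). Ccl11 was higher in Shunt than in TAC by 2.01 (adjusted p = 0.000264), with 3.08 to 7.34 CPM in Shunt against 1.18 to 1.46 CPM in TAC. Trp53inp1 was higher by 0.62 (adjusted p = 0.00563), while Penk differed by -0.37 (adjusted p = 0.603). All 3 TAC libraries were in the other clock phase from the Shunt libraries, with Arntl above Dbp.

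The load and fetal gene list was described next. Of its 21 tested autosomal members, none was called by edgeR or DESeq2 between Shunt and sham. At an unadjusted p under 0.05, 1 was lower and 1 higher, against 7.15% and 7.31% of all autosomal genes. The median log2 fold change was 0.05, with 12 members above 0 and 9 below. With the Y-linked covariate it was -0.4, with 8 above 0 and 13 below. The Shunt libraries were more spread in these genes than the sham libraries. The SD of log2 CPM was larger over Shunt than over sham in 15 of the 21, against 50.0% of all autosomal genes, and the median ratio of the SDs was 1.47. Without Shunt replicate 3 the count was 11. Ankrd2, 1 of the 15, was at the floor, with 0 to 4 counts in Shunt and 1 to 3 in sham. It passed the count filter only through TAC and WT libraries.

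Nppa (chromosome 4, 148000722 to 148002079), the atrial natriuretic peptide gene, had 330, 53.5, 25.6, 45.6 and 222 CPM in Shunt, against 36.5, 53, 42.9, 42.7 and 51.7 CPM in sham. Shunt replicates 1 and 5 stood far above every sham library, replicate 2 was level with the highest sham library, replicate 4 lay among them and replicate 3 below every one. The log2 fold change was 1.58 ± 0.59 (adjusted p = 0.250), and it was -0.13 without replicates 1 and 5. Nppb, the B-type natriuretic peptide gene, had 138, 34.8, 8.08, 16.7 and 80.0 CPM in Shunt and 61.4, 42.8, 16.0, 16.0 and 13 CPM in sham, a 16.9-fold range within Shunt (log2 fold change 0.89 ± 0.68, adjusted p = 0.581). Acta1, the skeletal actin that is re-expressed in strained heart muscle, had 752, 151, 25.2, 62.7 and 452 CPM in Shunt, a 29.7-fold range, and 96.9 to 232 CPM in sham (0.79 ± 0.68 on the log2 scale, adjusted p = 0.632). The same 2 Shunt libraries were the highest in all 3 genes, and replicate 3 the lowest.

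The Nppa window of 250 bases before the RefSeq start (GRCm38.p6, chr4:148000472-148000721, plus strand) is shown because Nppa has the widest difference in spread between Shunt and sham among the natriuretic peptides. TGATAA and TATAAA on either strand are in capitals.
Nppa: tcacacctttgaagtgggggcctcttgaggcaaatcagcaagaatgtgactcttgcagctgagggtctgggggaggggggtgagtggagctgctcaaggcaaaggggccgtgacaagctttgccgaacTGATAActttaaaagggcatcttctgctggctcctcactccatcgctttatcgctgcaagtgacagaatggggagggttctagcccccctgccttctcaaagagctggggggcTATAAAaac
Of the 19 load genes in the promoter table, 2 held TGATAA (10.5%, against 9.21% of all genes) and 7 held TATAAA (36.8%, against 14.3%).

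Several stress-linked members were also highest in Shunt replicate 1 and lowest in replicate 3, and others were not. Ccn2, a matrix-associated growth factor gene induced by stretch, had 165, 64.4, 33.1, 35.3 and 118 CPM in Shunt and 25.6 to 74.4 CPM in sham (log2 fold change 0.77 ± 0.47, adjusted p = 0.472). Gdf15, a stress-induced cytokine, had 4.00, 2.00, 1.37, 1.71 and 2.86 CPM in Shunt and 1.35 to 1.85 CPM in sham (0.57 ± 0.52, adjusted p = 0.657). Mt2, a metal-binding stress protein, had 46.0, 5.22, 4.36, 5.07 and 26.4 CPM in Shunt and 2.88 to 10.0 CPM in sham (1.59 ± 0.78, adjusted p = 0.362). Postn, the matricellular protein of activated fibroblasts, had 172, 121, 30.3, 84.9 and 137 CPM in Shunt and 30.1 to 118 CPM in sham, so it varied as widely in sham (SD of log2 CPM 0.98 in Shunt and 0.96 in sham). Ccn1, a stretch-induced matricellular protein, was instead lowest in Shunt replicate 1, with 31, 63.7, 34.6, 42.2 and 43.9 CPM in Shunt and 41.7 to 70.2 CPM in sham (-0.31 ± 0.18, adjusted p = 0.425). Rcan1 and Tgfb2 were highest in replicate 2, and Ankrd1, Tnni1, Myl4 and Mybpc2 in replicate 4. Over the 21 genes, Shunt replicate 1 was the highest Shunt library in 13, against 29.6% of all autosomal genes. Ankrd2, at the floor, is 1 of the 13. Replicate 3 was the highest in 0, against 21.3% of all autosomal genes. It was the lowest in 15, and the matching share of all autosomal genes was not computed. Mean deviations from the sham mean were 0.71, 0.06, -0.62, -0.07 and 0.46 on the log2 scale for Shunt replicates 1 to 5, and -0.30 to 0.27 for the sham libraries.

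Some structural members were more even than Acta1. Myh7, the slow beta myosin heavy chain of the fetal ventricle, had 2741, 2574, 2684, 2558 and 2724 CPM in Shunt and 2839, 2828, 3135, 3269 and 2976 CPM in sham. It was the 1 load gene of 21 without overlap between the groups, at a log2 fold change of -0.18 ± 0.10 (adjusted p = 0.408). Of all autosomal genes, 2.32% had no overlap with lower values in Shunt. Csrp3, the muscle LIM protein of the Z-disc, had 1182 to 1357 CPM in Shunt and 1348 to 1580 CPM in sham (-0.21 ± 0.07, adjusted p = 0.209). Ankrd1, a stretch-responsive nuclear and sarcomere protein, had 727 to 1046 CPM in Shunt and 729 to 1649 CPM in sham (-0.48 ± 0.27, adjusted p = 0.417). Of the remaining members, Des, Actn1, Xirp1 and Xirp2 (intermediate filament, actinin and Xin proteins of the muscle cell's junctions and Z-discs) had log2 fold changes of -0.14 to 0.12. Ccn1, Rcan1 (a calcineurin inhibitor), Mybpc2 (fast myosin-binding protein C), Tgfb2 (a growth factor of the TGF-beta family), Tnni1 (slow skeletal troponin I), Ankrd2 (a relative of Ankrd1) and Myl4 had -0.69 to 0.23. The lowest was Myl4, the atrial light chain, which was high in the libraries with Myl7. Myl4 was also widely spread, at 28.8 to 236 CPM in Shunt and 40.2 to 375 CPM in sham.

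**Figure D3:**
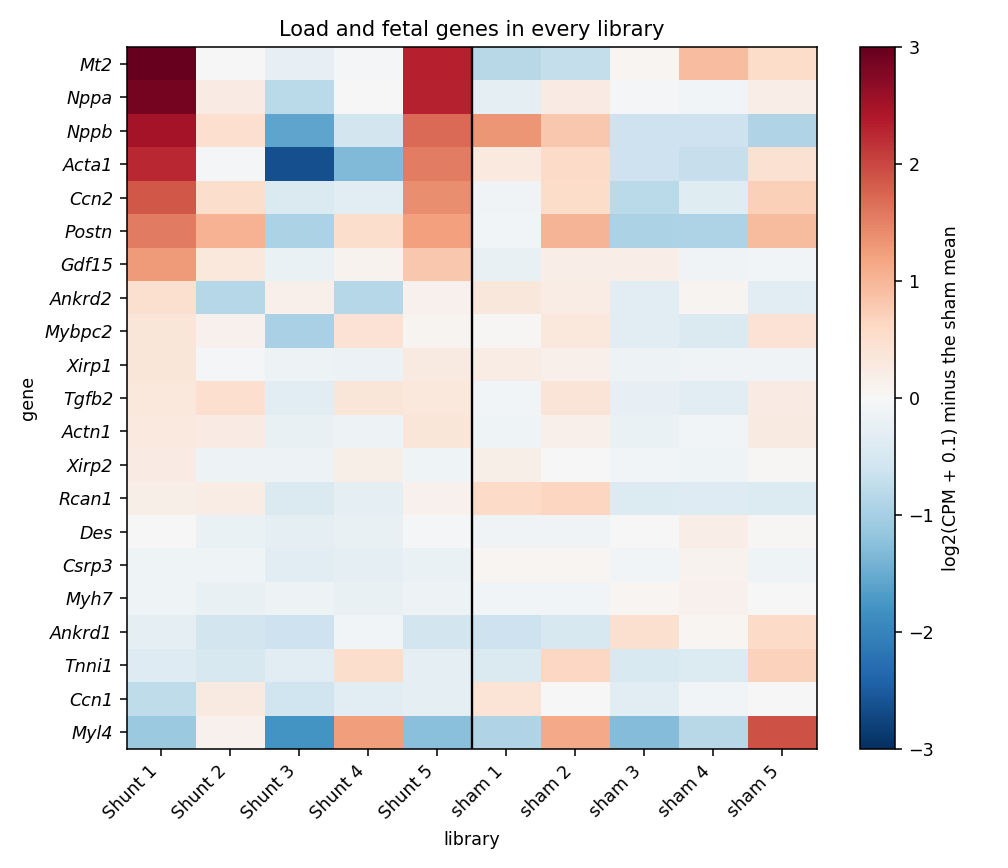
Each cell is the log2(CPM + 0.1) of 1 of the 21 load and fetal genes in 1 library, minus the mean of the 5 sham libraries, with Shunt replicates 1 to 5 left of the line, sham replicates 1 to 5 right of it and colours cut off at 3. Shunt replicates 1 and 5 are red for Mt2, Nppa, Nppb, Acta1, Ccn2, Postn and Gdf15, while Shunt replicate 3 is blue for most of these.

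Against the TAC libraries, 18 of the 21 load genes were lower in Shunt (16 without the library labelled TAC replicate 2), where 13.8% of all autosomal genes were called lower. Ankrd2, at the floor in Shunt, is in both counts. Nppa was at 25.6 to 330 CPM in Shunt and at 3681, 4686 and 2042 CPM in TAC, a log2 difference of -4.68 ± 0.70 (adjusted p = 0.00033). Ankrd1 differed by -2.85 ± 0.30 (adjusted p = 2.27e-05), Tgfb2 by -2.37 ± 0.20 (adjusted p = 2.4e-06), and Myh7 by -0.66 ± 0.11 (adjusted p = 0.00046). The highest Shunt library, replicate 1, was below the lowest TAC library for Nppa, Nppb and Acta1.

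Cell division genes had higher mean levels in Shunt, without a single call. All 32 tested genes of the G2 and mitosis list had a log2 fold change above 0 (49.7% of all autosomal genes were below 0), with a median of 0.75. At an unadjusted p under 0.05, 23 were higher, against 7.31% of all autosomal genes. With the Y-linked covariate the median was 0.67, with 28 of the 32 above 0. None was called by edgeR or DESeq2. Bub1, a spindle checkpoint kinase, had 4.23, 1.18, 1.64, 1.83 and 3.41 CPM in Shunt and 1.00, 0.754, 1.43, 1.6 and 0.620 CPM in sham (log2 fold change 1.19 ± 0.37, adjusted p = 0.183). Kif11, the kinesin that separates spindle poles, had 9.27, 2.57, 2.68, 3.61 and 6.73 CPM in Shunt and 2.18, 1.77, 3.03, 2.28 and 2.97 CPM in sham (1.03 ± 0.31, adjusted p = 0.183). Top2a, the topoisomerase that untangles chromosomes, had 32.5, 8.65, 10.5, 13.5 and 23.1 CPM in Shunt and 8.11, 7.02, 11.4, 11.2 and 8.45 CPM in sham (0.93 ± 0.31, adjusted p = 0.209). In each of the 3, Shunt replicates 1 and 5 were the highest of the 10 libraries, and the other Shunt libraries lay within or close to the sham range.

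Shunt replicate 1 was the highest Shunt library in 29 of the 32 genes, against 29.6% of all autosomal genes. The SD of log2 CPM was larger in Shunt than in sham in 28, against 50.0% of all autosomal genes. Mean deviations of the list from the sham mean were 1.44, -0.05, 0.10, 0.32 and 1.10 on the log2 scale in Shunt replicates 1 to 5, and -0.30 to 0.30 in sham. With replicates 1 and 5 left out the median log2 fold change was 0.13, and 25 of the 32 were above 0. Erythroid markers were also high in these libraries, with a summed level of 532, 63.4, 48.7, 26.4 and 274 CPM in Shunt and 59.1, 38.2, 135, 414 and 259 CPM in sham over all 7 autosomal markers, of which 5 were tested. Sham replicate 4, with the second highest erythroid sum of the 10 libraries, had a mitosis deviation of 0.22. Whether blood RNA has a part in the mitosis values was not tested. Ppargc1a, the coactivator of mitochondrial gene expression, was highest in the same pair of libraries too, with 461, 159, 196, 187 and 310 CPM in Shunt and 134 to 157 CPM in sham (0.83 ± 0.22, adjusted p = 0.135).

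The 250-base windows of Kif11 (chr19:37376132-37376381, plus strand) and Top2a (chr11:99024190-99024439, minus strand), from RefSeq on GRCm38.p6, are shown because the mitosis genes had log2 fold changes of 1 sign and many share these letters. Capitals mark CCAAT, the box bound by NF-Y, and TTTGAA, the core of the CHR element of mitotic promoters, each on either strand.
Kif11: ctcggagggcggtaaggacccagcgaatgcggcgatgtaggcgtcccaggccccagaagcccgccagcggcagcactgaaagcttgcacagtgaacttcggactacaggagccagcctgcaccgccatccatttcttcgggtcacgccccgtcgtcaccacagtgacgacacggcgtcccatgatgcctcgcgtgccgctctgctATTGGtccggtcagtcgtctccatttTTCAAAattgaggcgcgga
Top2a: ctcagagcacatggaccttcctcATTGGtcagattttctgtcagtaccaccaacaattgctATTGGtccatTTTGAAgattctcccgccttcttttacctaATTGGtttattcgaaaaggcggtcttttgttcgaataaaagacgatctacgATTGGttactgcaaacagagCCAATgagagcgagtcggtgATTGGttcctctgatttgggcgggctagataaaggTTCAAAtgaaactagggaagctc
CCAAT was in the window of 21 of the 26 mitosis genes with an entry (80.8%), against 37.5% of the 27025 genes of the table. TTTGAA was in 11 of the 26 (42.3%, against 18.3%), and both were in 10 (38.5%, against 7.34%). The same 2 motifs were in 1 and 0 of the 10 called genes with an entry. These are matches of letters and not shown to be sites.

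Genes of earlier cell cycle steps had smaller differences. Of 37 DNA replication and S phase genes, none was called by edgeR or DESeq2, 24 had a log2 fold change above 0 and the median was 0.12. At an unadjusted p under 0.05, 3 were higher, against 7.31% of all autosomal genes. Without Shunt replicates 1 and 5 the median was -0.01, with 17 above 0 and 20 below. Rrm2, a subunit of the reductase that makes deoxynucleotides, had 29.8, 10.7, 9.46, 13 and 22.2 CPM in Shunt and 5.05 to 10.5 CPM in sham (1.09 ± 0.40, adjusted p = 0.233). Of 26 G1 cyclins, kinases and their regulators, none was called by edgeR, 1 was called higher by DESeq2, and the median was 0.11. E2f7, a repressor of S phase genes, had the smallest p of these, with 4.46, 1.31, 1.81, 1.97 and 2.89 CPM in Shunt, against 0.872, 0.981, 1.10, 1.14 and 0.930 CPM in sham. The groups did not overlap, and the log2 fold change was 1.31 ± 0.29 (adjusted p = 0.0715). Without Shunt replicates 1 and 5 the median of the G1 list was -0.02, with 12 above 0 and 13 below.

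**Figure D4:**
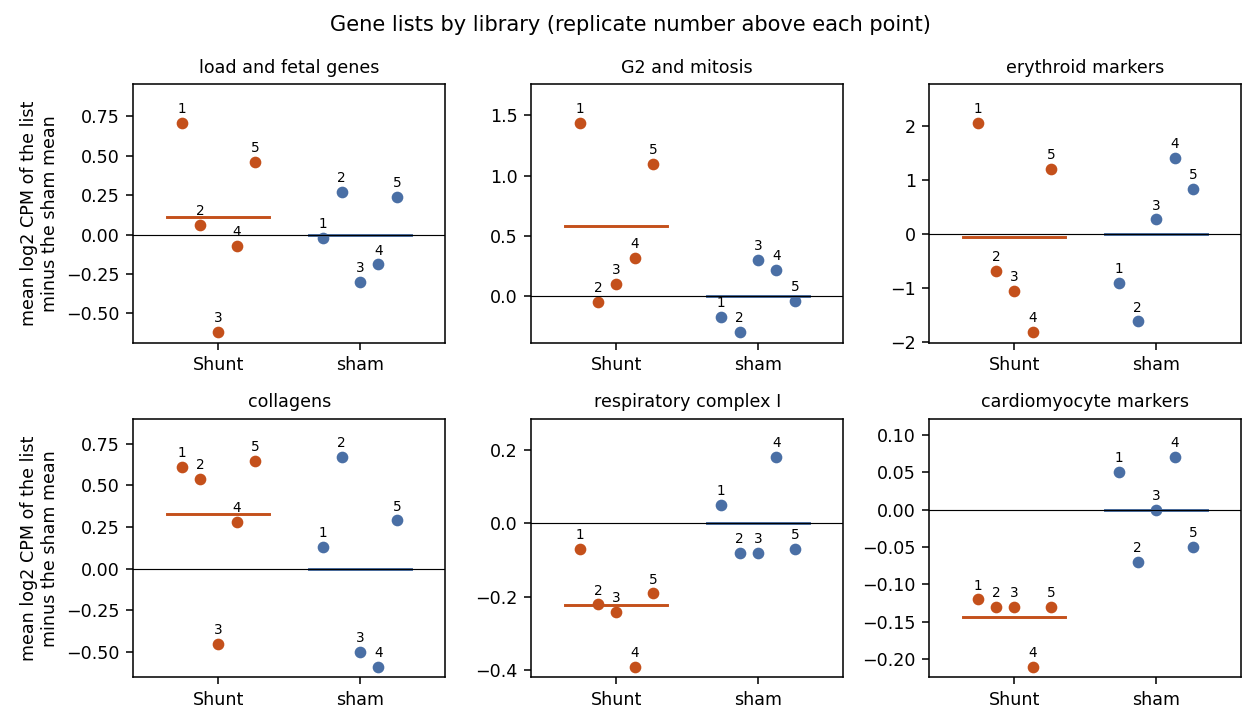
Each point is 1 library, numbered by replicate, at the mean log2 CPM of a gene list minus the mean of the sham libraries, with Shunt left of sham and a bar at each group mean. Shunt replicates 1 and 5 are highest in the load, mitosis and erythroid panels among Shunt libraries, and in the cardiomyocyte panel every Shunt library, at -0.21 to -0.12, is below every sham library.

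Genes of mitochondrial respiration had slightly lower mean levels in Shunt, again without a call by edgeR. All 35 tested genes of respiratory complex I had a log2 fold change below 0 with a median of -0.23. At an unadjusted p under 0.05, 28 were lower, against 7.15% of all autosomal genes. None was called by edgeR and 1 was called lower by DESeq2. In 11 of the 35 the groups did not overlap, against 2.32% of all autosomal genes. Ndufa3, an accessory subunit, had 199, 175, 165, 146 and 185 CPM in Shunt and 234, 215, 209, 267 and 217 CPM in sham (-0.39 ± 0.10, adjusted p = 0.123). Its Shunt range ended below its sham range. Summed over the list, complex I took 12000 to 14300 CPM in Shunt and 14300 to 17300 CPM in sham. Without Shunt replicates 1 and 5 the median was -0.29, with all 35 below 0.

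The nuclear genes of complexes III to V did likewise, with 32 of 33 below 0, a median of -0.23, 25 at an unadjusted p under 0.05, no call by edgeR and 3 lower by DESeq2. Cox6a2, the heart and muscle isoform of a cytochrome oxidase subunit, had 1801, 1774, 1841, 1552 and 1723 CPM in Shunt and 2205, 2092, 2142, 2610 and 2158 CPM in sham (-0.37 ± 0.10, adjusted p = 0.159). In the pyruvate dehydrogenase and TCA cycle list 24 of 27 were below 0, with a median of -0.13, and Suclg1, a subunit of succinyl-CoA ligase, had 430 to 488 CPM in Shunt and 528 to 627 CPM in sham (-0.28 ± 0.07, adjusted p = 0.0899). Of 37 genes of fatty acid uptake and oxidation, 27 were below 0, with a median of -0.12. Hadha, the alpha subunit of the trifunctional enzyme of beta-oxidation, had 1610 to 1870 CPM in Shunt and 1955 to 2218 CPM in sham (-0.25 ± 0.08, adjusted p = 0.209). Cytosolic ribosomal proteins had a median of -0.14, with 33 of 38 below 0.

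Most markers of heart muscle cells had lower levels beside these lists. Of the 10 cardiomyocyte markers, 8 had a log2 fold change below 0 and 2 above it, the highest at 0.25. At an unadjusted p under 0.05 in edgeR, 4 were lower, against 7.15% of all autosomal genes. None was called by edgeR and 1 was called lower by DESeq2. The 10 cardiomyocyte markers summed to 99400 to 108000 CPM in Shunt and 112000 to 128000 CPM in sham, none was listed at 0 in any of the 10 libraries, and their median log2 fold change was -0.19. Tnnt2, cardiac troponin T, had 7552, 8573, 8561, 7714 and 7711 CPM in Shunt and 10164, 9412, 9208, 11140 and 10341 CPM in sham (-0.33 ± 0.08, adjusted p = 0.0899). Its adjusted p was the lowest of the list. The part of muscle cell content in the respiration values was not tested. With the Y-linked covariate the median was 0.24 for complex I, 0.23 for complexes III to V and 0.30 for the cardiomyocyte markers, so the direction of all 3 lists turned in that fit. It also turned for fatty acid uptake and oxidation (median 0.32, 34 of 37 above 0), the TCA cycle list (0.15) and the ribosomal proteins (0.12), as it did for the fibroblast markers (-0.57) and the interferon response (-0.13).

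In the matrix the collagens had 17 of 20 members above 0 and a median log2 fold change of 0.27, with no call by edgeR and 1 higher by DESeq2. Col14a1, a collagen that binds fibril surfaces, had 58.9, 54.2, 37.0, 47.4 and 56.0 CPM in Shunt and 21.2, 36.8, 15.3, 9.77 and 25.7 CPM in sham. The lowest Shunt library was just above the highest sham library, and the log2 fold change was 1.22 ± 0.35 (adjusted p = 0.169). Lum, the proteoglycan lumican, which spaces collagen fibrils, had 205, 191, 147, 172 and 170 CPM in Shunt and 109, 128, 96.1, 92.8 and 141 CPM in sham (0.64 ± 0.17, adjusted p = 0.133). The main fibrillar collagen Col1a1 overlapped between the groups, with 114 to 264 CPM in Shunt and 118 to 298 CPM in sham (0.17 ± 0.29, adjusted p = 0.836). Without Shunt replicates 1 and 5 the collagen median was 0.02, and with the Y-linked covariate it was -0.63.

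The other lists are given by their median log2 fold change, against 0.002 for all autosomal genes. It was -0.02 for 25 calcium handling genes, -0.06 for 32 ion channels and connexins, 0.03 for 31 genes of TGF-beta and BMP signalling, and 0.01 for 20 angiogenic factors. Among stress lists it was -0.17 for 22 heat shock proteins, 0.10 for 23 genes of ER stress and folding and -0.06 for 24 immediate early genes. Further metabolic lists had -0.09 for glycolysis, -0.11 for branched-chain amino acid catabolism and 0.10 for ketone body use. Sarcomere and Z-disc genes had -0.09, matricellular glycoproteins 0.16, matrix proteases and their inhibitors 0.05, the insulin-like growth factor axis -0.10 and autophagy genes 0.06. Of all these, Spon1 was the 1 gene called by edgeR. Endothelial markers had a median of 0.00, smooth muscle and pericyte markers -0.04 and macrophage markers -0.03. Activated fibroblast markers had 0.25, lymphocyte markers 0.03, and granulocyte and mast cell markers 0.23. Medians further below 0 were those of the valve and conduction markers (-0.44, 9 of 11 tested below 0), the Schwann cell and neuronal markers (-0.38, 6 of 9) and the atrial markers (-0.33, 9 of 11), of which none was called by edgeR or DESeq2. With the level of Y-linked genes as a covariate in edgeR, the direction turned for the matricellular list (-0.72), the proteases (-0.46), activated fibroblast markers (-1.46), sarcomere genes (0.20), branched-chain amino acid catabolism (0.16) and atrial markers (0.47), among others, and medians nearer 0 moved to either side. Mesothelial and epicardial markers had 1.45 over 10 tested genes, of which 10 were above 0, and the summed level of all 11 members was 22.7 to 33.5 CPM in Shunt and 18.3 to 22.9 CPM in sham. The defining mesothelial gene Msln, mesothelin, had 0.192, 2.04, 0.0671, 0.0745 and 0.683 CPM in Shunt and 0.0436 to 0.664 CPM in sham, highest in Shunt replicate 2. Adipocyte markers had a median of 1.38 over 7 tested genes, with Adipoq, adiponectin, at 1.8 and 0.708 CPM in Shunt replicates 2 and 4, at 0 to 0.0769 CPM in the other Shunt libraries and at 0 to 0.841 CPM in sham. No gene of these 2 lists was called by edgeR or DESeq2.

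The circadian clock differed between the libraries. The log2 CPM of Arntl, the clock activator BMAL1, minus that of Dbp, a clock output factor in antiphase to it, was -7.15, -2.27, -8.42, -6.37 and -4.44 in Shunt replicates 1 to 5, against 1.97, 2.34, -7.28, -8.08 and -7.47 in sham. Dbp was thus above Arntl in all 5 Shunt libraries and in sham replicates 3 to 5. A second fit, called clock-matched here, took the libraries of the series with that sign, which are the 5 Shunt, 3 sham and 2 WT libraries. The match was by sign alone, and Shunt replicates 2 and 5, at -2.27 and -4.44, lay well above those sham libraries. Arntl itself had a log2 fold change of 2.19 ± 1.09 in the second fit (edgeR, adjusted p = 0.33). Dbp had -0.51 ± 0.30 (edgeR, adjusted p = 0.399). Whether a remaining difference in phase has a part in the values of the second fit was not tested. In the second fit, 13 of 14138 autosomal genes were higher in Shunt (0.0920%) and 31 were lower (0.219%). The number rests on single libraries, with 83 higher and 147 lower without Shunt replicate 3, and 1 higher and 9 lower without sham replicate 4.

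Of the 19 genes called against all 5 sham libraries, 13 were also called in the clock-matched fit, which is 68.4% of the first list and 29.5% of the 44 in the second. Both fits hold the 5 Shunt libraries and sham replicates 3 to 5, so the shared calls are not independent support. All 5 marker genes were among the 13. Penk had a log2 fold change of -3.25 ± 0.21 (adjusted p = 1.91e-05), Hsd11b1 -1.36 ± 0.10 (2.77e-05), Spon1 -0.86 ± 0.08 (0.000339), C7 -2.47 ± 0.39 (0.0414) and Trp53inp1 0.77 ± 0.14 (0.0462). Fnip2, Mctp1, Tmod3, Clpb, Dhrs4 and 6030408B16Rik had the same sign and adjusted p of 0.0568 to 0.0862. No load gene was called, and Nppa had 1.55 (adjusted p = 0.400).

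Genes called in the clock-matched fit and not in the first included regulators of metabolism and of vessel tone. Irs1, the insulin receptor substrate, had 37.7, 39.9, 36.9, 32.3 and 42.6 CPM in Shunt, against 20.7, 15.3 and 18.6 CPM in sham replicates 3 to 5 and 31.5 and 34.5 CPM in sham replicates 1 and 2. It rose in the clock-matched fit, at 1.05 ± 0.12 on the log2 scale (adjusted p = 0.00185), and had 0.65 with all 5 sham libraries (adjusted p = 0.209). Hif1a, the oxygen-sensing transcription factor, had 108 to 116 CPM in Shunt and 77.3 to 93.2 CPM in sham replicates 3 to 5 (0.41 ± 0.07, adjusted p = 0.0325). Ednra, the endothelin receptor of smooth and heart muscle, had 97.1 to 116 CPM in Shunt and 69.3 to 82.6 CPM in those sham libraries (0.43 ± 0.08, adjusted p = 0.0414).

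Adra1a, the alpha-1A adrenergic receptor, had 9.31, 11.4, 9.19, 14.0 and 11.3 CPM in Shunt and 23.8, 19.9 and 29.6 CPM in sham replicates 3 to 5 (-1.16 ± 0.15, adjusted p = 0.00656). Sham replicates 1 and 2 had 12.7 and 14.5 CPM, so the groups overlapped over all sham libraries (-0.86, adjusted p = 0.183). Acsm5, a mitochondrial acyl-CoA synthetase, had 1.37 to 2.04 CPM in Shunt and 3.77 to 4.70 CPM in the clock-matched sham libraries (-1.38 ± 0.14, adjusted p = 0.00094). Sqstm1, the autophagy receptor p62, had 408 to 516 CPM in Shunt and 611 to 639 CPM in the clock-matched sham libraries, while sham replicates 1 and 2, in the other phase, had 317 and 318 CPM. Its log2 fold change was -0.49 ± 0.08 (adjusted p = 0.0229) in the matched fit and -0.16 (adjusted p = 0.746) with all sham libraries. Hadh, an enzyme of beta-oxidation, had a matched log2 fold change of -0.31 ± 0.06 (adjusted p = 0.0454), with 841 to 879 CPM in Shunt and 1022 to 1122 CPM in sham replicates 3 to 5.

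**Figure D5:**
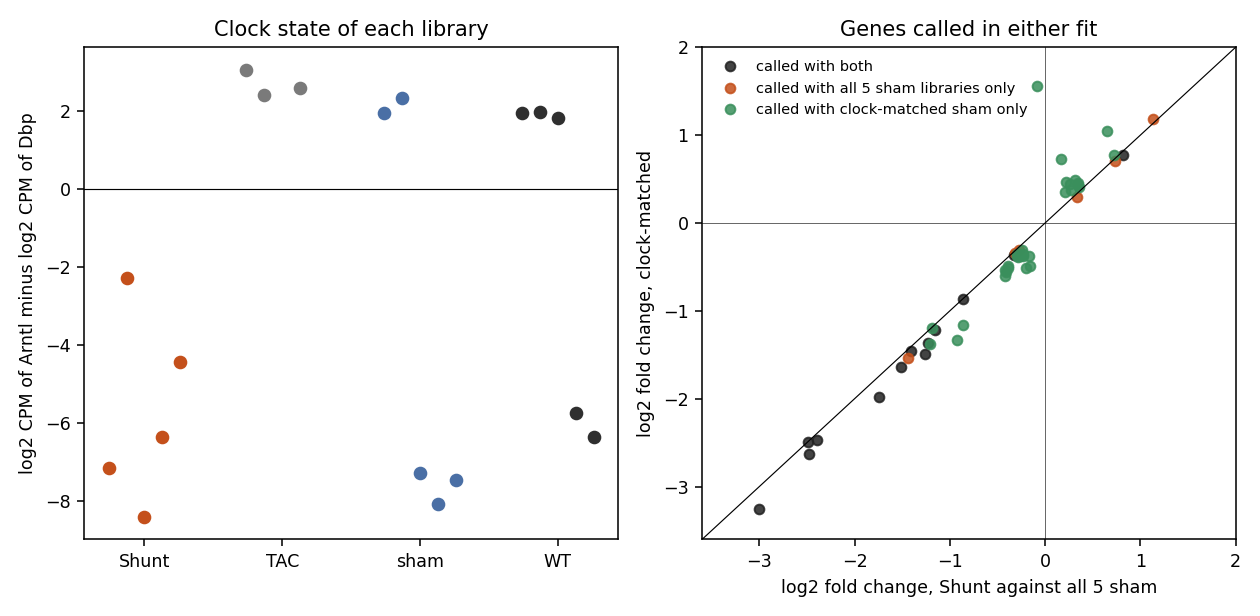
The first panel gives the log2 CPM of Arntl minus that of Dbp in every library, with points below 0 having Dbp above Arntl. The second panel plots the log2 fold change of each gene called in either fit, Shunt against all 5 sham libraries on the x axis and Shunt in the clock-matched fit on the y axis, where the line marks equal values and Colq is the point that moves most, at -0.08 with all sham libraries and 1.56 when matched.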

How the data were processed

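Gene counts per Ensembl gene were deposited by the authors, 1 table per left ventricle, as raw counts with no normalization. Per the submitters' processing notes, the tools included CASAVA 1.8.2, STAR 2.3.0e, HTSeq 0.6.1p1 and DESeq2 1.8 on GRCm38 (mm10). The annotation release and strand setting are not given in the sources used here. Per the labels' protocols, the TruSeq RNA v2 kit was used, which does not keep the strand, so overlapping antisense genes cannot be told apart. Summary lines were dropped. Symbols and positions came from GENCODE M21 (36602 of 38355 identifiers), and promoters from RefSeq (GRCm38.p6).

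Genes passing edgeR's filterByExpr (minimum count 10, 14876 genes) were scaled by TMM and fitted with 1 mean per group over all 18 libraries (edgeR 4.0.16, R 4.3.3, quasi-likelihood F test, robust, biological coefficient of variation 0.160). Benjamini-Hochberg adjustment covered all 14876. Each SE was taken as the size of the fold change, on the log2 scale, divided by the root of its F value. On simulated data, 87.4% of 198 genes changed 2-fold were called, with 7 unchanged genes called of 14713 genes. No 2 libraries of a group agreed within counting error. Each library is labelled as a separate sample, and a p-value here covers only the variation among these samples, some of it possibly technical.

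The members, 48 gene lists and rules were chosen with earlier results of these data known. The rule named the 5 marker genes, the load list and up to 10 protein-coding called genes each way whose average log2 CPM reached 1 and whose groups did not overlap. Other genes named, including Lvrn, Cpne7, Cnmd, Clpb, 6030408B16Rik, the examples from lists and the clock-matched genes, were chosen after their values were seen. Alternatives were DESeq2 1.42.0, limma-voom (limma 3.58.1), other scalings and filters, Shunt and sham fitted alone, a replicate block, clock, atrial and Y-linked covariates, and leaving out each library. Leaving out Shunt replicates 1 and 5 together, and TAC replicate 2 from Shunt against TAC, was chosen after seeing the data.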

Additional observations from a re-analysis of the deposited data

Results flagged for a closer look

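In 4 of the 80 groups of 5 libraries examined, 1 library lay far from the rest, with a gap to its nearest neighbour above 0.71 of the group's range; chance alone gives about 1 in 20. Tnni1, slow skeletal troponin I, had 4.84 CPM in Shunt replicate 4 and 2.33 to 2.73 CPM in the other Shunt libraries (gap 0.783 of the range), and that library also held Myl7. Mybpc2, fast myosin-binding protein C, had 21.6 CPM in Shunt replicate 3 and 44.9 to 57.6 CPM in the others (0.747). Tgfb2 had 7.95 CPM in the same library and 12.6 to 14.4 CPM in the others (0.773). Lvrn had 1.64 CPM in sham replicate 4 and 2.44 to 2.85 CPM in the other sham libraries (0.717).

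Outside the autosomal comparison, the lowest Xist count in a Shunt library was 3408, against 5 to 11 in sham. In all, 17 genes on X, on Y or without a placed chromosome were called in the same fit, Xist and Ddx3y among them, and the others are not described.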

How the results depend on the processing

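All 19 called genes kept their sign in each setting run except the Y-linked covariate, where Lvrn had 0.87 and Tmod3 -0.04 on the log2 scale. The cause of the changes below was not tested. Against 4 higher and 15 lower autosomal genes, the counts were 91 and 108 with DESeq2, 2 and 15 with limma-voom, 10 and 17 with Shunt and sham fitted alone, 15 and 23 with the clock covariate, 13 and 31 with libraries in which Dbp was above Arntl, and 0 and 0 with the Y-linked covariate. Leaving out single libraries gave 1 to 9 higher and 10 to 19 lower, the fewest without sham replicate 4 and the most without Shunt replicate 3 or TAC replicate 2. RLE scaling gave 3 and 15, upper quartile scaling 4 and 15, no low-count filter 5 and 13, a filter of 1 CPM in 3 libraries 3 and 16, the atrial covariate 4 and 17, and leaving out Shunt replicates 1 and 5 together 5 and 14. With the replicate number as a block they were 7 and 19. The correlation of residuals between same-numbered Shunt and sham libraries was -0.26 to 0.32, so the numbers were not taken as pairs.

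The clock-matched counts of 13 higher and 31 lower were 9 and 19 with Shunt and sham alone, 5 and 18 in a fit of 18 libraries in 5 groups, and 16 and 30 with RLE scaling. Leaving out single libraries gave 1 to 83 higher and 9 to 147 lower. The count of 15 load genes with a larger SD in Shunt was 11 to 16 when single libraries were left out. Low genes such as Cnmd, with 4 to 14 counts in Shunt, are limited by counting error.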
